A study of Mus musculus with 6 samples.

Results

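The 38 mouse genes described here encode the mitotic kinases and cyclins, the chromosomal passenger complex, the spindle checkpoint, spindle and cytokinesis proteins, and condensin with other proteins of chromosome condensation and separation. They form a named list, and each gene was found by its Ensembl gene ID in tables that hold a level for 12235 genes. Of the 38 genes, 36 were listed under their own ID, and all 36 passed the filter for testing (1 FPKM or more in at least 3 libraries), as did 9198 genes in all. The remaining pair, Foxm1 and Ncapd2, lay in loci that the tables file under the ID of a neighbouring gene, and their levels were taken from events at their own exon edges.

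RNA was sequenced from DN3 thymocytes of 5-week-old Hspa9 cKO mice (3 libraries) and WT mice (3 libraries), both without treatment, in a study of the role of GRP75 in thymocyte precursors. GRP75, the product of Hspa9, is the HSP70 chaperone of the mitochondrial matrix, and DN3 cells are T cell precursors sorted here as lineage-negative, CD4-, CD8-, CD44- and CD25+. The Cre line behind the conditional knockout was not given in the sources used here. The labels do not say whether the 3 libraries of a group came from separate animals, so the p-values cover the spread between libraries alone, and that spread may be technical. Levels are in FPKM, sequenced fragments relative to transcript length and to library total, summed over the transcript start events of a gene, and libraries are given in the order of replicates 1 to 3 of each group.

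Cells enter mitosis when CDK1, bound to cyclin A2 and then to cyclin B, becomes active, with polo-like and Aurora kinases acting beside it. Condensin and topoisomerase II compact and untangle the chromosomes, the passenger complex and the spindle checkpoint hold cells until chromosomes are attached, separase then cuts cohesin, and central spindle proteins direct the final division. Many of these genes are transcribed in G2 and M phase under a promoter element called the CHR, bound by the MuvB complex together with B-MYB and FOXM1, and under CCAAT boxes, bound by NF-Y. DN3 thymocytes include resting cells that are recombining the gene for the T cell receptor beta chain and cells that have passed beta selection and divide rapidly.

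The promoters of Cdk1, Ccnb1 and Ccnb2 are printed here as those of the CDK1 and cyclin B pair, and that of Bub1 because it and Cdk1 hold the composite CDE-CHR element. Those of Top2a and Pttg1 were chosen after their values were seen, Top2a as the promoter with the most motif matches among those printed and Pttg1 as one with none. The sequences are RefSeq's for build GRCm38.p6, run 5′ to 3′ on the gene's strand over the 250 bases before and the 30 bases after the RefSeq transcript start, and show CHR matches (TTTGAA or TTCGAA) and CCAAT matches on either strand in capitals (TTCAAA and ATTGG are the same motifs on the other strand). They lie at chr10:69352883-69353162, minus strand for Cdk1, chr13:100786457-100786736, minus strand for Ccnb1, chr9:70421525-70421804, minus strand for Ccnb2, chr2:127831830-127832109, minus strand for Bub1, chr11:99024160-99024439, minus strand for Top2a and chr11:43425952-43426231, minus strand for Pttg1.
Cdk1: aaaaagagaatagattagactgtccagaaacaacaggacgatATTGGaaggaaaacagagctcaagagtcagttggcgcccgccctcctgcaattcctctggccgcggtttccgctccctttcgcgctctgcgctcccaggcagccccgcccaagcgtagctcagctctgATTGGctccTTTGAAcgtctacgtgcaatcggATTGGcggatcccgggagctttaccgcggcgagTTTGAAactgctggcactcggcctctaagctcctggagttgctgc
Ccnb1: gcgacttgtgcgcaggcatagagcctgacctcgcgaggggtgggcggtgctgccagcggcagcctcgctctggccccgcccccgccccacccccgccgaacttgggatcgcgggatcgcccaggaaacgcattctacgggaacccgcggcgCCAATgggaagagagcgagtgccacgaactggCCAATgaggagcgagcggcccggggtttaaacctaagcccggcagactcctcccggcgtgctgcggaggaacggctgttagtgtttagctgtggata
Ccnb2: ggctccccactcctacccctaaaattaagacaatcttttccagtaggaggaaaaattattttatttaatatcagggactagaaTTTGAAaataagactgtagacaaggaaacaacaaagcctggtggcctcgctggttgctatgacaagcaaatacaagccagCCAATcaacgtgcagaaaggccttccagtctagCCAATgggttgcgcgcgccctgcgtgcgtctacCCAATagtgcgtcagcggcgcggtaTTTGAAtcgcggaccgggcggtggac
Bub1: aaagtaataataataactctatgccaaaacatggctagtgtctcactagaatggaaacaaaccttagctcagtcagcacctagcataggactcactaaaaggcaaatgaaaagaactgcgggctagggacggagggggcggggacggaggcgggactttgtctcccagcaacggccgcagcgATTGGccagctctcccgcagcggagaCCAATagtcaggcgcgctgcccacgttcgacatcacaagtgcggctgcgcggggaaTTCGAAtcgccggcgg
Top2a: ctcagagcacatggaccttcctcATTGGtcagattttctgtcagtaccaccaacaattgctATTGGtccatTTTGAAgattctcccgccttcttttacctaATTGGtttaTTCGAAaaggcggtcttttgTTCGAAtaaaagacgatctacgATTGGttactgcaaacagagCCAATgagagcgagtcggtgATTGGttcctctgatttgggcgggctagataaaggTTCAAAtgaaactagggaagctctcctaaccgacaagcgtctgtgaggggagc
Pttg1: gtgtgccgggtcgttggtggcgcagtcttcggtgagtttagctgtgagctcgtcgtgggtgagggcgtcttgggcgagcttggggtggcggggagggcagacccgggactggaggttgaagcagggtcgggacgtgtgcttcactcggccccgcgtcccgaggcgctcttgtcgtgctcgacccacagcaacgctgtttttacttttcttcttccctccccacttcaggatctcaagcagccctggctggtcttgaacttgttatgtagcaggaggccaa

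Of the 38 genes, 31 had a promoter in the RefSeq table, scanned over 250 bases before and 50 bases after the start. A CHR match was found in 22 of the 31 promoters (71%), against 19.2% of all 32851 promoters in the table. CCAAT was found in 24 of the 31 (77.4%), against 37.4% of all promoters, and both motifs together in 21 (67.7%), against 7.52%. The CHR lay within 50 bases of the start in 19 of these genes, and a CCAAT box lay within the 150 bases before the start in 23. The E2F motif (TTTCGCGC, TTTGGCGC, TTTCCCGC or TTTGCCGC) was found in 3 (9.68%), against 2.26% of all promoters. The CDE-CHR element, a CHR preceded by GCGG at a spacing of any 4 bases, was found in Cdk1 and Bub1 (6.45%), against 0.11% of all promoters; it contains a CHR match and is counted under both. Neither CHR nor CCAAT was found in 6 of the 31 (19.4%), which are Melk, Birc5, Mad2l1, Nusap1, Ncaph and Pttg1, against 50.9% of all promoters. These are matches of letters and not measured binding, and no match says only that the letters are not in this window. The RefSeq start lay within 100 bases of the strongest start event in these libraries for 26 of the 30 genes with both. That distance was 270 bases for Pttg1, whose strongest start lay upstream of the whole window. The bases before that start were therefore not scanned for Pttg1.

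**Figure D1:**
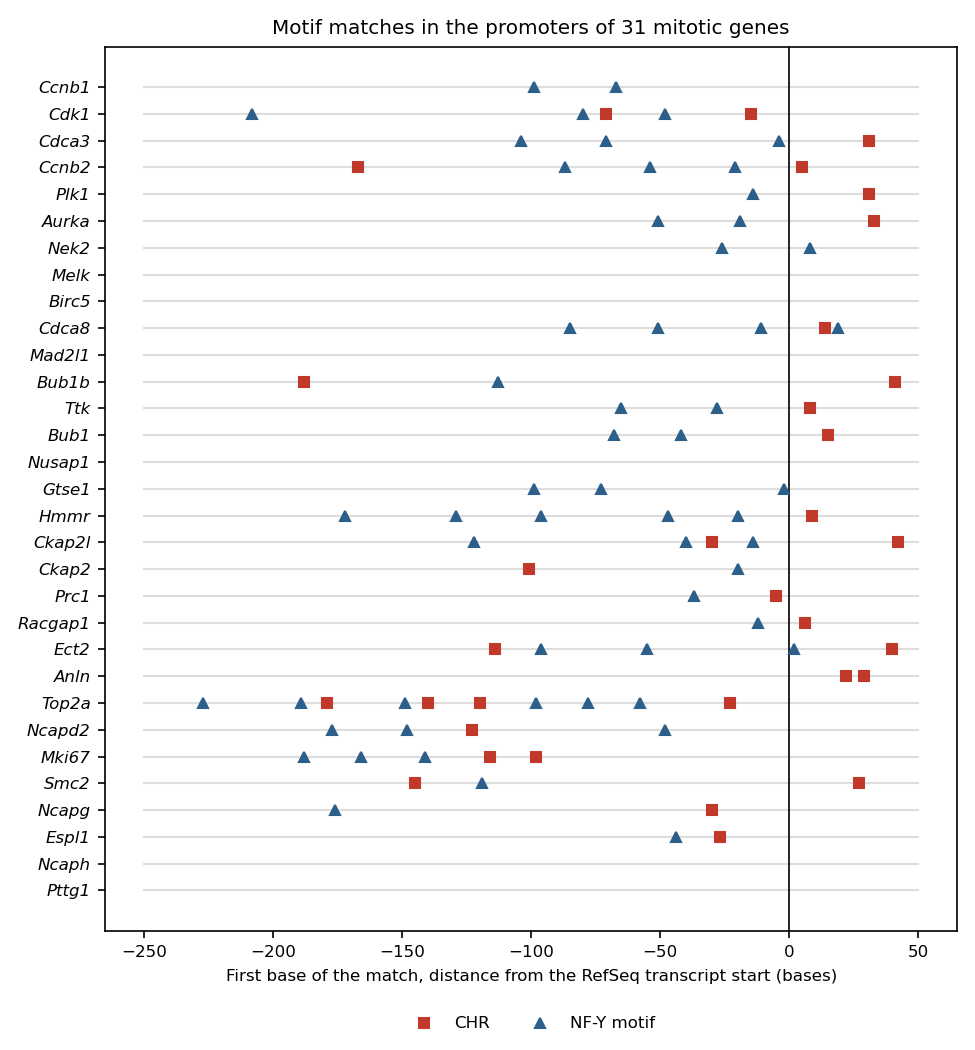
Position of CHR matches (squares) and of CCAAT matches, the NF-Y motif (triangles), in the promoters of the 31 genes with a RefSeq promoter, as the distance in bases of the first base of each match from the RefSeq transcript start. A CHR lies within 50 bases of the start in 19 genes, CCAAT boxes lie mostly upstream of it, and 6 genes have neither.

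The summed level of Hspa9, the targeted gene, did not separate the groups. The Hspa9 cKO libraries had gene levels of 117, 124 and 110 FPKM, against 105, 121 and 122 FPKM in the WT libraries. Its exons did separate them. Transcripts of Hspa9 that include exons 2 to 4 measured 24.9, 16.8 and 25.2 FPKM in the Hspa9 cKO libraries, against 105.3, 108.8 and 104.6 FPKM in the WT libraries. Transcripts that skip to exon 5 measured 76.9, 89.4 and 68.9 FPKM in Hspa9 cKO cells. In WT cells they were listed at 0 in replicate 1 and at 12.3 and 17.0 FPKM in replicates 2 and 3. The including form made up 21.3, 13.6 and 22.9% of the summed including and skipping forms (one more of which uses another acceptor site) in the Hspa9 cKO libraries, against 100, 89.9 and 86.1% in the WT libraries. The including and the skipping form were thus both listed above 0 in 2 of the 3 WT libraries. Leaving out WT replicate 2 gave 24 mitotic genes lower and leaving out WT replicate 3 gave 23, against 27 with all 6 libraries. Read counts are not part of the tables, so depth is unknown and no counting interval can be given. Libraries correlated at r = 0.960 to 0.966 within groups and at 0.934 to 0.943 across groups, on log2 levels across genes, which are not independent replicates. Over all 9198 genes, limma called 516 lower (5.61%) and 773 higher (8.4%) in Hspa9 cKO cells at an adjusted p under 0.05, and the median log2 change was 0.061. With libraries rescaled by a trimmed mean of ratios, limma gave 696 lower and 610 higher, and by median ratios 668 lower and 617 higher. Leaving out any 1 of the 6 libraries gave 202 to 323 lower and 233 to 514 higher.

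Mitotic genes were lower as a group in Hspa9 cKO cells. Of the 36 genes tested, 27 fell and 0 rose (limma, adjusted p under 0.05), against 5.61% of all genes called lower. At an unadjusted p under 0.05, 33 were lower and 0 higher, against 12.3% of all genes lower and 19.1% higher. Leaving out any 1 library gave 18 to 24 genes lower, and 18 of the 27 kept their call without each library in turn. Of the 36 genes, 9 were not called in the fit of all 6 libraries, and 35 of the 36 log2 changes were negative, against 43.3% of all genes. The summed level of the 36 genes was 462.3, 465.4 and 470.8 FPKM in the Hspa9 cKO libraries, against 827.0, 818.4 and 802.5 FPKM in the WT libraries. All 3 Hspa9 cKO libraries lay below all 3 WT libraries for 33 of the 36 genes, against 15.7% of all genes tested. The exceptions were Bub1, Smc4 and Pttg1, whose groups overlapped. The median log2 change of the 36 genes was -0.69, with a range of -1.51 to 0.12, and 9 genes had a mean in Hspa9 cKO cells under 50% of that in WT cells. Changes are on the scale of log2(FPKM + 1), which understates the change of low genes. In these bulk samples, fewer dividing cells and less RNA per dividing cell cannot be told apart.

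Single genes differed in how evenly the libraries of a group measured them. The coefficient of variation of a gene over the 3 libraries had a median of 8.23% in Hspa9 cKO cells and 9.46% in WT cells. It was above 25% in WT cells for 6 genes, namely Bub1, Pttg1, Cdk1, Prc1, Cdca8 and Mad2l1, and 5 of the 6 were not called, Cdk1 being the exception. The lowest of the WT libraries was replicate 1 for 12 genes, replicate 2 for 9 and replicate 3 for 15, so that no single WT library held most of the low values. Among Hspa9 cKO libraries, replicate 1 was lowest for 12 genes, replicate 2 for 15 and replicate 3 for 9.

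**Figure D2:**
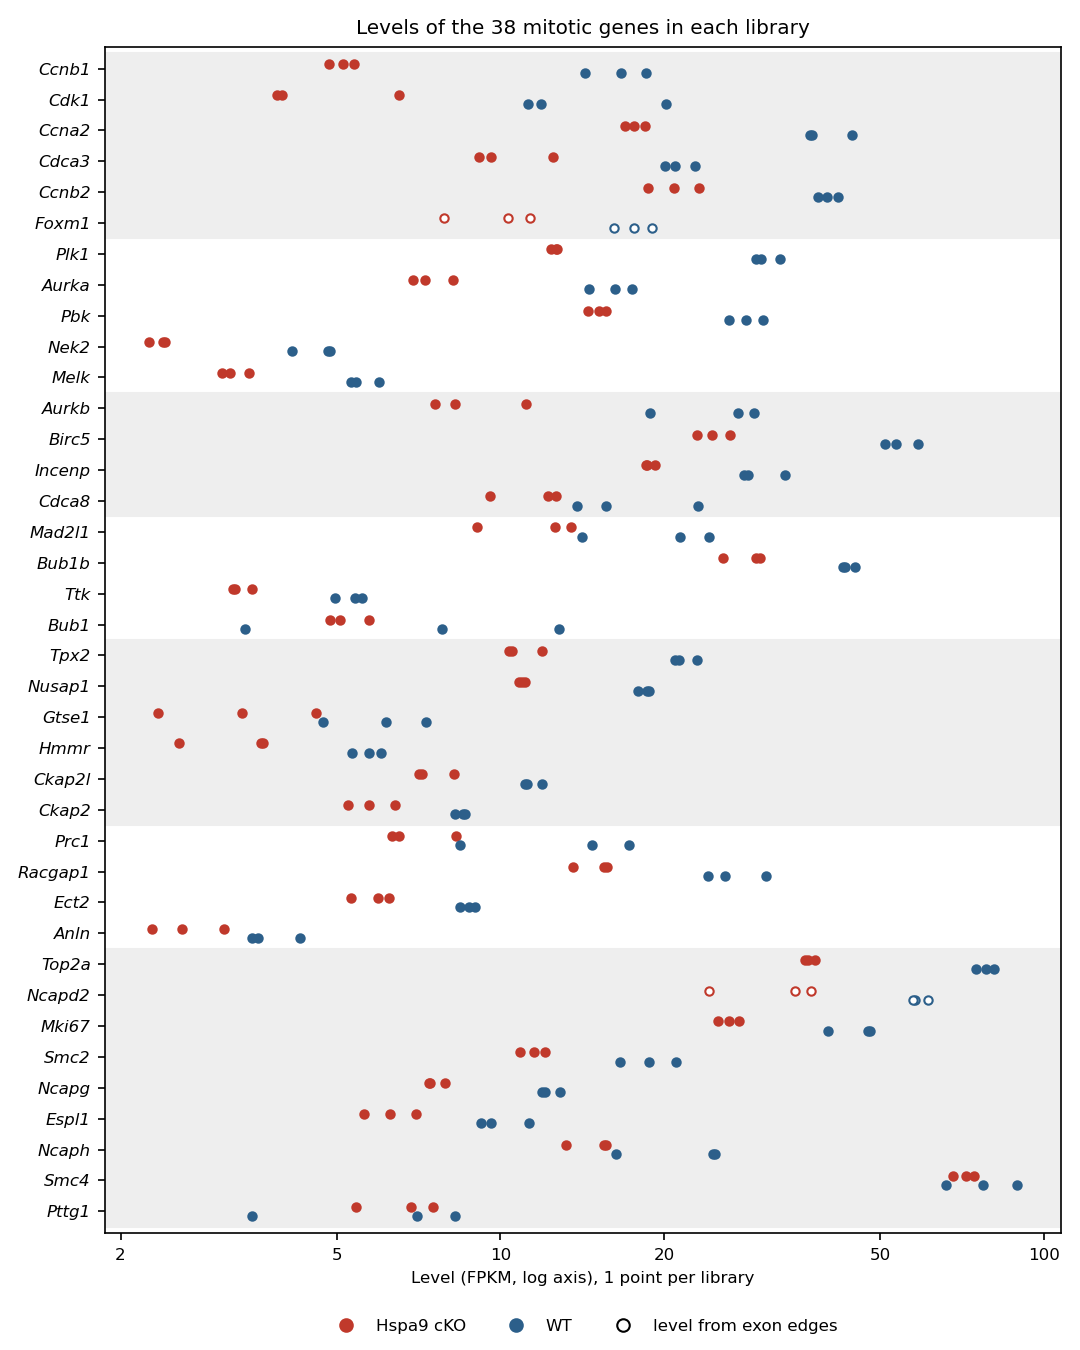
Level of each of the 38 genes in FPKM on a log axis, with 1 point for each Hspa9 cKO library (red, upper row of each gene) and each WT library (blue, lower row); shaded bands separate the role groups, and open points are levels from exon edges. The red and blue points separate for all genes except Bub1, Smc4 and Pttg1.

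**Figure D3:**
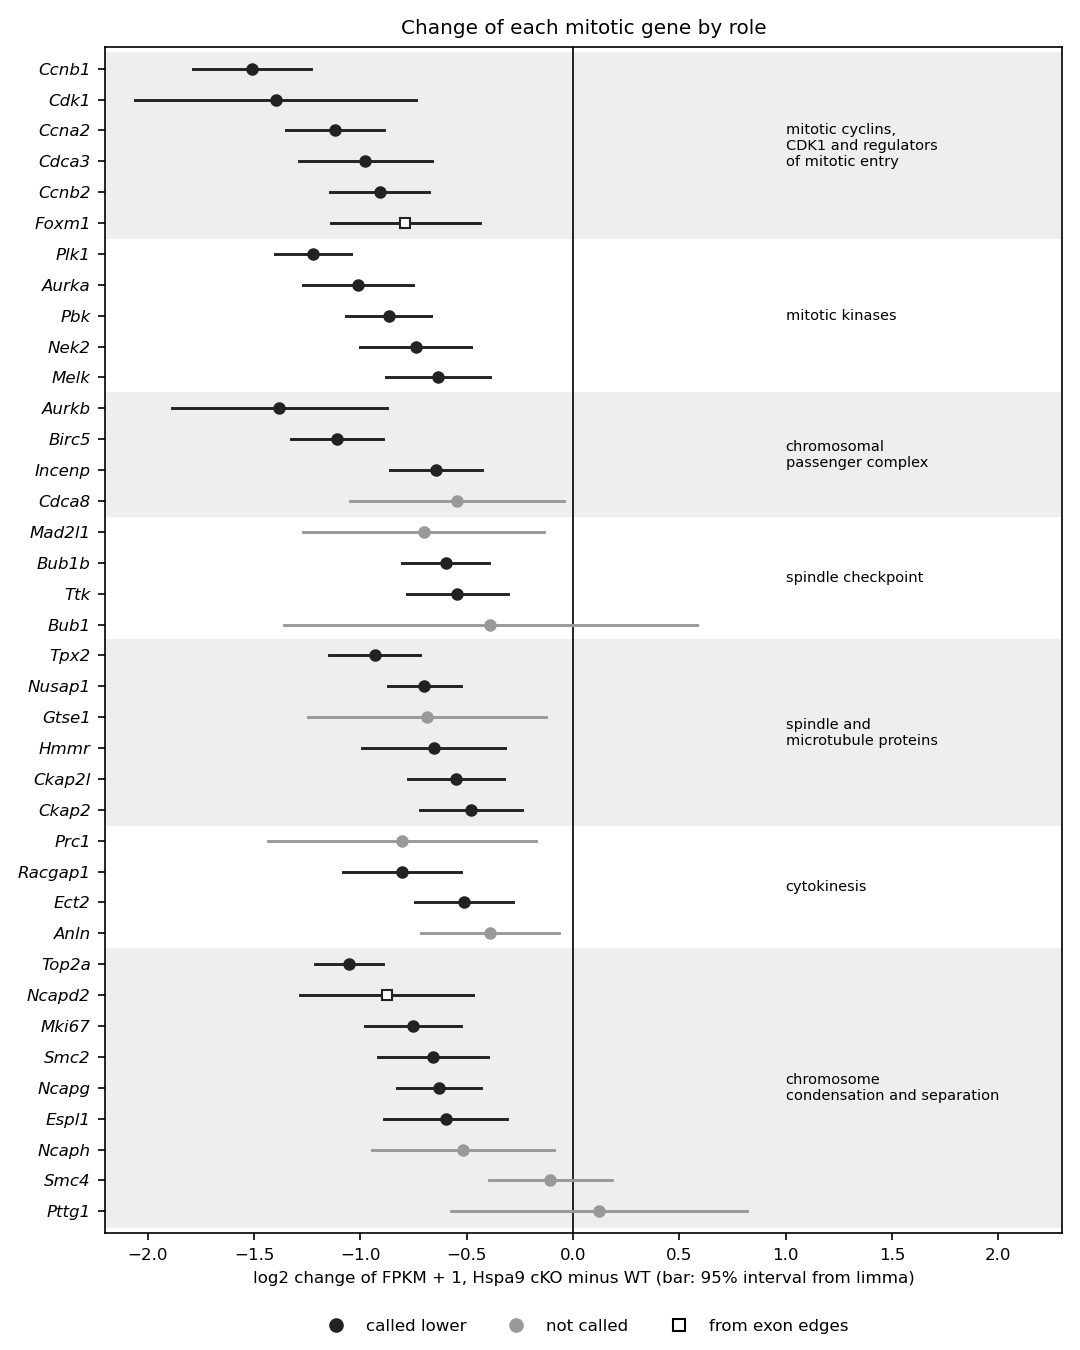
Log2 change of FPKM + 1, Hspa9 cKO minus WT, for each of the 38 genes with its 95% interval from limma, ordered by size within role groups. Black points were called lower, grey points were not called, and open squares (Foxm1 and Ncapd2) come from exon edges; Ccnb1 has the lowest value at -1.51 and Pttg1 the highest at 0.12.

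All 5 tested genes of the cyclins, CDK1 and regulators of mitotic entry fell, with a median log2 change of -1.12. Ccnb1, cyclin B1, the main partner of CDK1 at mitotic entry, had 4.84, 5.13 and 5.37 FPKM in the Hspa9 cKO libraries, against 18.5, 16.7 and 14.3 FPKM in the WT libraries. Each Hspa9 cKO value lay far below the lowest WT value, and the log2 change was -1.51 (SE 0.11, limma adjusted p = 0.00171), the lowest of the 36 genes. Ccnb2, the other B-type cyclin and the most abundant of this group per length, had 23.2, 18.7 and 20.9 FPKM in the Hspa9 cKO libraries, against 41.8, 39.9 and 38.5 FPKM in the WT libraries, and its log2 change of -0.91 (SE 0.096, limma adjusted p = 0.00444) was the smallest of the 5. Processed pseudogene copies of both B cyclins are annotated, and how the authors' counting split reads between them and the genes was not given in the sources used here. Ccna2, cyclin A2, the partner of CDK2 and CDK1 from S phase to early mitosis, had 17.6, 16.9 and 18.5 FPKM in the Hspa9 cKO libraries, against 44.3, 37.5 and 37.2 FPKM in the WT libraries. Its groups were well apart, with a log2 change of -1.12 (SE 0.094, limma adjusted p = 0.00221); the gene overlaps Exosc9, on the other strand, by 863 bases.

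Cdk1 itself, the kinase that these cyclins activate, was less even. It had 3.96, 3.88 and 6.52 FPKM in the Hspa9 cKO libraries, against 20.2, 11.9 and 11.2 FPKM in the WT libraries. The groups did not overlap, but Hspa9 cKO replicate 3 and WT replicate 1 each stood above the others of their group. The log2 change was -1.40 (SE 0.27, limma adjusted p = 0.0245). From transcript ends in place of starts, Cdk1 had 2.84, 2.93 and 6.23 FPKM in the Hspa9 cKO libraries, against 16.7, 8.85 and 9.44 FPKM in the WT libraries, and the log2 change of -1.35 then missed the threshold (limma adjusted p = 0.0502). Its call was also lost without Hspa9 cKO replicate 1 or 2 or WT replicate 1 or 2 (adjusted p = 0.0504 to 0.0827 with limma). Cdca3, also called trigger of mitotic entry, averaged 10.4 ± 1.82 FPKM in Hspa9 cKO cells and 21.3 ± 1.36 FPKM in WT cells (SD, n = 3 each), with a log2 change of -0.98 (SE 0.13, limma adjusted p = 0.00811). End events gave no test for Cdca3, since they were listed above 0 in Hspa9 cKO replicate 2 alone. Foxm1, the forkhead factor that activates G2 and M phase genes, had, at its own exon edges and from end events, 10.3, 11.3 and 7.87 FPKM in the Hspa9 cKO libraries, against 16.2, 19.0 and 17.6 FPKM in the WT libraries. Its groups did not overlap, and it fell with a log2 change of -0.79 (SE 0.14, limma adjusted p = 0.0222), in a fit that called 508 of 9450 genes lower (5.38%).

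All 5 mitotic kinases outside the complexes fell, with a median log2 change of -0.87. Plk1, polo-like kinase 1, which acts at centrosomes, kinetochores and the cleavage plane, had 12.7, 12.4 and 12.7 FPKM in the Hspa9 cKO libraries, against 29.5, 30.2 and 32.6 FPKM in the WT libraries. The 3 Hspa9 cKO values were nearly equal, all far below the lowest WT value, and the log2 change was -1.22 (SE 0.074, limma adjusted p = 0.000975). Pbk, a MAPKK-like kinase of dividing cells and the most abundant of the 5 per length, had 15.2, 14.5 and 15.6 FPKM in the Hspa9 cKO libraries, against 26.4, 28.3 and 30.5 FPKM in the WT libraries, without overlap and with a log2 change of -0.87 (SE 0.082, limma adjusted p = 0.00342). Melk, an AMPK-related kinase, changed least, with 3.45, 3.07 and 3.18 FPKM in the Hspa9 cKO libraries, against 5.42, 5.97 and 5.31 FPKM in the WT libraries and a log2 change of -0.63 (SE 0.10, limma adjusted p = 0.0135). Its call was lost without Hspa9 cKO replicate 2 or 3 (limma adjusted p = 0.0542 to 0.0579). Aurka, Aurora A, the kinase of centrosomes and spindle poles, averaged 7.46 ± 0.663 FPKM in Hspa9 cKO cells and 16.1 ± 1.49 FPKM in WT cells (SD, n = 3 each), a log2 change of -1.01 (SE 0.11, limma adjusted p = 0.00442). Nek2, the kinase that separates centrosomes, was among the lowest of the 38 genes, at 2.35 ± 0.0853 FPKM in Hspa9 cKO cells and 4.61 ± 0.408 FPKM in WT cells (SD, n = 3 each), and its log2 change was -0.74 (SE 0.11, limma adjusted p = 0.0102).

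Of the 4 subunits of the chromosomal passenger complex, 3 fell, and the median log2 change of the 4 was -0.88. Aurkb, Aurora B, the kinase of the complex, had 11.1, 8.27 and 7.58 FPKM in the Hspa9 cKO libraries, against 27.4, 18.8 and 29.3 FPKM in the WT libraries. The WT libraries spread widely, with replicate 2 lowest, yet all lay above the Hspa9 cKO libraries, and the log2 change was -1.38 (SE 0.21, limma adjusted p = 0.0119). Birc5, survivin, which directs the complex to centromeres and was its most abundant subunit per length, had 23.0, 26.5 and 24.5 FPKM in the Hspa9 cKO libraries, against 53.5, 51.0 and 58.8 FPKM in the WT libraries, a log2 change of -1.11 (SE 0.090, limma adjusted p = 0.00212). Incenp, the scaffold that activates Aurora B, averaged 18.8 ± 0.392 FPKM in Hspa9 cKO cells and 30.03 ± 2.92 FPKM in WT cells (SD, n = 3 each), with a log2 change of -0.64 (SE 0.089, limma adjusted p = 0.00905). End events of Incenp were under 1 FPKM in 4 of the 6 libraries and gave no test. Cdca8, borealin, had no start event under its ID and was measured from ends, with 12.7, 12.2 and 9.56 FPKM in the Hspa9 cKO libraries, against 13.8, 23.1 and 15.6 FPKM in the WT libraries. The groups were ordered but close, and its log2 change of -0.55 was not called (95% interval -1.05 to -0.04, limma adjusted p = 0.133). Cdca8 shares 2264 bases with 9930104L06Rik on the other strand, with strandedness not given in the sources used here.

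Of the 4 spindle checkpoint genes, 2 fell, with a median log2 change of -0.57 over the 4. Bub1b, BUBR1, a subunit of the mitotic checkpoint complex, was the most abundant per length, with 25.7, 29.5 and 30.04 FPKM in the Hspa9 cKO libraries, against 44.8, 43.0 and 42.7 FPKM in the WT libraries and a log2 change of -0.60 (SE 0.084, limma adjusted p = 0.00932). Part of this sum is a start event upstream of the gene that matches no annotated exon edge and measured 8.28, 11.2 and 12.4 FPKM in the Hspa9 cKO libraries, against 11.9, 8.93 and 11.1 FPKM in the WT libraries. At the exon edges of Bub1b alone, the level was 17.5, 18.3 and 17.6 FPKM in the Hspa9 cKO libraries and 33.0, 34.1 and 31.5 FPKM in the WT libraries, a log2 change of -0.85 (SE 0.069, limma adjusted p = 0.00238). The end event filed under its ID gave 4.85, 8.05 and 7.88 FPKM in the Hspa9 cKO libraries, against 7.22, 6.48 and 11.1 FPKM in the WT libraries. These groups overlapped, and the log2 change of -0.22 was not called (limma adjusted p = 0.593). In WT replicate 3 this end event had the same level as the upstream start event, and whether it belongs to Bub1b was not tested. With end events by exon edge (start events where a gene had none), Bub1b kept its lower call. Ttk, MPS1, the kinase at the top of the checkpoint, averaged 3.33 ± 0.150 FPKM in Hspa9 cKO cells and 5.31 ± 0.316 FPKM in WT cells (SD, n = 3 each), with a log2 change of -0.54 (SE 0.098, limma adjusted p = 0.0195). The call of Ttk was lost when any library other than WT replicate 1 was left out (limma adjusted p = 0.0522 to 0.0712). Mad2l1, MAD2, another subunit of the mitotic checkpoint complex, had 9.04, 12.6 and 13.5 FPKM in the Hspa9 cKO libraries, against 21.4, 14.1 and 24.2 FPKM in the WT libraries. Its groups did not overlap, but WT replicate 2 lay close to the Hspa9 cKO libraries, and the log2 change of -0.70 was not called (95% interval -1.27 to -0.14, limma adjusted p = 0.0997). Without WT replicate 2, Mad2l1 was called lower, at -0.92 (limma adjusted p = 0.0476). Bub1, a checkpoint kinase, had 5.07, 4.85 and 5.72 FPKM in the Hspa9 cKO libraries, against 12.8, 3.39 and 7.80 FPKM in the WT libraries. WT replicate 2 was the lowest of all 6 libraries and WT replicate 1 the highest, so the groups overlapped, and the interval of the log2 change of -0.39 spanned -1.36 to 0.58 (limma adjusted p = 0.554).

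Among 6 spindle and microtubule proteins, 5 fell, and the median log2 change of the 6 was -0.67. Tpx2, the activator of Aurora A on spindle microtubules, was the most abundant per length and changed most, with 12.0, 10.4 and 10.5 FPKM in the Hspa9 cKO libraries, against 21.0, 23.0 and 21.3 FPKM in the WT libraries. Each WT value exceeded each Hspa9 cKO value by more than the spread within groups, with a log2 change of -0.93 (SE 0.088, limma adjusted p = 0.00338). Nusap1, which bundles spindle microtubules, averaged 11.0 ± 0.160 FPKM in Hspa9 cKO cells and 18.4 ± 0.460 FPKM in WT cells (SD, n = 3 each) and had a log2 change of -0.70 (SE 0.071, limma adjusted p = 0.00407). Hmmr, a spindle protein also known as the hyaluronan-mediated motility receptor, averaged 3.28 ± 0.618 FPKM in Hspa9 cKO cells and 5.70 ± 0.350 FPKM in WT cells (SD, n = 3 each), a log2 change of -0.66 (SE 0.14, limma adjusted p = 0.0307). Ckap2, a cytoskeleton associated protein, had 6.40, 5.25 and 5.74 FPKM in the Hspa9 cKO libraries, against 8.24, 8.53 and 8.61 FPKM in the WT libraries and changed least, by -0.48 (SE 0.099, limma adjusted p = 0.0286) on the log2 scale. The calls of Hmmr and Ckap2 were lost whichever library was left out (limma adjusted p = 0.0653 to 0.0839 for Hmmr and 0.0513 to 0.0935 for Ckap2). Ckap2l, the paralog of Ckap2, averaged 7.49 ± 0.634 FPKM in Hspa9 cKO cells and 11.4 ± 0.465 FPKM in WT cells (SD, n = 3 each), with a log2 change of -0.55 (SE 0.093, limma adjusted p = 0.0162). That call was lost without Hspa9 cKO replicate 2 or 3 or WT replicate 1 (limma adjusted p = 0.0579 to 0.0653). Gtse1, a microtubule-binding protein that also regulates p53, had 3.35, 2.34 and 4.58 FPKM in the Hspa9 cKO libraries, against 6.16, 4.71 and 7.29 FPKM in the WT libraries and was not called, at -0.69 (95% interval -1.25 to -0.13, limma adjusted p = 0.102). From transcript ends the groups of Gtse1 were further apart, with 6.73, 5.26 and 4.60 FPKM in the Hspa9 cKO libraries, against 9.15, 10.04 and 11.2 FPKM in the WT libraries, and it was called lower, at -0.78 (SE 0.15, limma adjusted p = 0.023).

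Of the 4 cytokinesis genes, 2 fell, with a median log2 change of -0.66 over the 4. Racgap1, the RhoGTPase-activating subunit of centralspindlin, was the most abundant per length, with 15.5, 13.6 and 15.7 FPKM in the Hspa9 cKO libraries, against 24.1, 25.9 and 30.8 FPKM in the WT libraries. Its groups were apart by more than their spread, with a log2 change of -0.80 (SE 0.11, limma adjusted p = 0.00968). Ect2, the exchange factor that activates RhoA at the cleavage furrow, averaged 5.82 ± 0.476 FPKM in Hspa9 cKO cells and 8.72 ± 0.278 FPKM in WT cells (SD, n = 3 each), a log2 change of -0.51 (SE 0.094, limma adjusted p = 0.0207). That call was lost when any library other than WT replicate 2 was left out (limma adjusted p = 0.0562 to 0.0663). Prc1, which bundles microtubules of the central spindle, had 6.32, 8.27 and 6.51 FPKM in the Hspa9 cKO libraries, against 14.8, 8.44 and 17.2 FPKM in the WT libraries. WT replicate 2 lay just above the highest Hspa9 cKO library, and the log2 change of -0.80 was not called (95% interval -1.43 to -0.18, limma adjusted p = 0.0933). Without WT replicate 2, Prc1 was called lower, at -1.09 (limma adjusted p = 0.0221). The whole of Prc1 lies within the span annotated for Rccd1 on the other strand. Anln, anillin, the scaffold of the contractile ring, had 2.28, 3.10 and 2.59 FPKM in the Hspa9 cKO libraries, against 3.58, 4.29 and 3.50 FPKM in the WT libraries. The groups of Anln did not overlap, and its log2 change of -0.39, the smallest of the 4, was not called (95% interval -0.72 to -0.07, limma adjusted p = 0.107).

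Of 8 tested genes of chromosome condensation and separation, 5 fell, with a median log2 change of -0.62. Top2a, topoisomerase II alpha, which untangles sister DNA, had 36.4, 36.9 and 37.9 FPKM in the Hspa9 cKO libraries, against 78.1, 81.0 and 74.9 FPKM in the WT libraries. Values within each group differed little, the groups lay far apart, and the log2 change was -1.05 (SE 0.066, limma adjusted p = 0.00103). Mki67, Ki-67, which coats mitotic chromosomes and marks dividing cells, averaged 26.3 ± 1.17 FPKM in Hspa9 cKO cells and 45.1 ± 4.35 FPKM in WT cells (SD, n = 3 each), a log2 change of -0.75 (SE 0.094, limma adjusted p = 0.00667). Espl1, separase, the protease that cuts cohesin, averaged 6.29 ± 0.701 FPKM in Hspa9 cKO cells and 10.04 ± 1.11 FPKM in WT cells (SD, n = 3 each), with a log2 change of -0.60 (SE 0.12, limma adjusted p = 0.0262). The call of Espl1 was lost whichever library was left out (limma adjusted p = 0.0501 to 0.0823). Pttg1, securin, which holds separase inactive, had 7.52, 5.43 and 6.84 FPKM in the Hspa9 cKO libraries, against 3.49, 8.23 and 7.02 FPKM in the WT libraries. WT replicate 1 was the lowest of the 6 libraries and WT replicate 2 the highest, and the log2 change of 0.12 had an interval of -0.57 to 0.82 (limma adjusted p = 0.802). Without WT replicate 1 it was -0.19.

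Within condensin I, Smc2, Ncapg and Ncapd2 were called lower, and Smc4 and Ncaph were not called. Smc2, one of the pair of ATPases at the core of condensin, averaged 11.5 ± 0.615 FPKM in Hspa9 cKO cells and 18.8 ± 2.22 FPKM in WT cells (SD, n = 3 each), a log2 change of -0.66 (SE 0.11, limma adjusted p = 0.0141), a call lost without Hspa9 cKO replicate 2 or 3 or WT replicate 1 (adjusted p = 0.0504 to 0.0592). Smc4, its partner ATPase, had 67.9, 74.5 and 72.0 FPKM in the Hspa9 cKO libraries, against 77.3, 89.4 and 66.0 FPKM in the WT libraries. Its mean over all 6 libraries was the highest of the 38 genes per length. In WT cells alone, Top2a averaged 78.0 FPKM and Smc4 77.6 FPKM. All Hspa9 cKO values of Smc4 lay within the range of WT values, and its log2 change of -0.11 was not called (95% interval -0.40 to 0.18, limma adjusted p = 0.589). From end events Smc4 had 61.5, 65.2 and 70.3 FPKM in the Hspa9 cKO libraries, against 75.5, 77.2 and 72.9 FPKM in the WT libraries. There the Hspa9 cKO libraries all lay below the WT libraries, and the log2 change of -0.20 was not called either (95% interval -0.37 to -0.02, limma adjusted p = 0.115). The difference between the changes of Smc2 and Smc4 was not tested. Ncapg, a HEAT-repeat subunit, averaged 7.58 ± 0.301 FPKM in Hspa9 cKO cells and 12.3 ± 0.501 FPKM in WT cells (SD, n = 3 each), with a log2 change of -0.63 (SE 0.082, limma adjusted p = 0.00746); it overlaps Lcorl, on the other strand, by 3366 bases. Ncaph, the kleisin that closes the ring, had 15.6, 13.2 and 15.5 FPKM in the Hspa9 cKO libraries, against 24.8, 24.7 and 16.3 FPKM in the WT libraries and was not called, at -0.52 (95% interval -0.95 to -0.09, limma adjusted p = 0.105). WT replicates 1 and 2 of Ncaph stood high and WT replicate 3 lay just above the Hspa9 cKO libraries. Without WT replicate 3 it was called lower, at -0.71 (limma adjusted p = 0.0249). Ncapd2, the other HEAT-repeat subunit, had at its own exon edges 37.3, 24.2 and 34.9 FPKM in the Hspa9 cKO libraries, against 58.0, 61.2 and 57.5 FPKM in the WT libraries, a log2 change of -0.88 (SE 0.17, limma adjusted p = 0.0247), and 0.091 from end events, where it was not called.

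Levels from transcript starts and from transcript ends gave similar changes for most genes. Of the 30 genes tested from both, 24 had log2 changes within 0.1 of each other and 28 within 0.2, with medians of -0.70 from starts and -0.70 from ends. The gene furthest from equality was Bub1b, whose start level here includes the event upstream of the gene. From both, 21 genes were called lower, where the fit on ends called 5.93% of all genes lower. Starts and ends are separate events of the same libraries and share their reads in part, so they are not replicates.

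**Figure D4:**
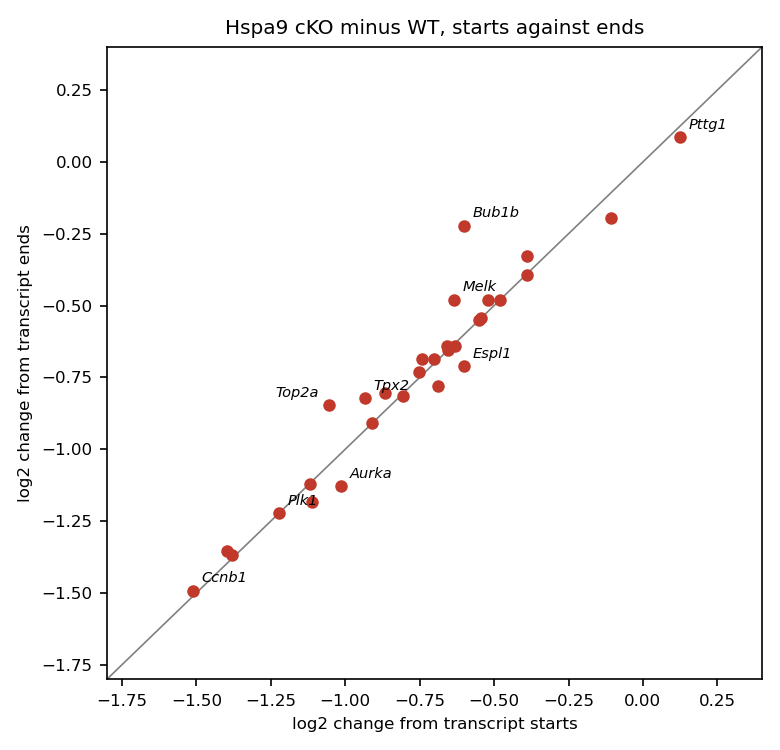
Log2 change (Hspa9 cKO minus WT, FPKM + 1) from transcript starts on the x axis and from transcript ends on the y axis, 1 point for each of the 30 genes tested from both; the line marks equal changes. Most points lie near the line, and Bub1b lies furthest from it, at -0.60 from starts and -0.22 from ends. Its start level includes an event upstream of the gene.

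Choice among alternative starts was compared for the 12 genes with at least 2 start events of 1 FPKM or more on average. The share of the main start did not pass an exact two-sided permutation test in any of them, where 3 against 3 libraries cannot go below p = 0.1. The groups did not overlap for 3 genes, Bub1b, Ect2 and Mki67, each at the smallest p of 0.1 (adjusted p = 0.4 over the 12 genes). Over all 2515 genes with such starts, the groups did not overlap for 14%. The main start of Bub1b made up 67.2, 61.6 and 57.9% of the summed start level in the Hspa9 cKO libraries, against 73.2, 78.8 and 73.5% in the WT libraries. The difference was -12.9 percentage points. The only other Bub1b start of 1 FPKM or more was the event upstream of the gene, which the exon-edge level leaves out. This share thus does not compare annotated starts of Bub1b alone. The main start of Mki67 made up 100, 95.3 and 98.3% of the summed start level in the Hspa9 cKO libraries, against 93.1, 90.7 and 94.9% in the WT libraries. The main start of Ect2 made up 52.9, 51.0 and 52.5% of the summed start level in the Hspa9 cKO libraries, against 57.4, 55.0 and 55.1% in the WT libraries. The difference was 5.00 percentage points for Mki67 and -3.70 for Ect2, smaller in size than that of Bub1b. The main start of Tpx2 made up 22.3, 80.9 and 92.5% of the summed start level in the Hspa9 cKO libraries, against 72.3, 54.3 and 71.5% in the WT libraries. Its share in Hspa9 cKO replicate 1 stood far below the 5 others, while the summed level of Tpx2 in that library did not. Of 8 exon and intron choices in these genes with a mean total of 5 FPKM or more, the retained intron of Cdca3 alone had groups that did not overlap, at 21.2, 10.3 and 19.1% retained in the Hspa9 cKO libraries and 23.5, 21.9 and 23.3% in the WT libraries (exact permutation test, p = 0.1, adjusted p = 0.8), where 14.4% of all such choices had groups that did not overlap.

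Changes were also set out by promoter motif. Of the 21 tested genes with a CHR match, 17 were lower, with a median log2 change of -0.66. Of the 9 tested genes without one, 5 were lower, with a median of -0.70. Both counts stand against 5.61% of all genes called lower. Ccnb1, whose log2 change was the lowest of all, has CCAAT boxes at 99 and 67 bases before the start and no CHR match in the window. Among the genes with neither motif in the window, Pttg1 had a log2 change of 0.12 and Birc5 one of -1.11. For Pttg1 the window does not reach the bases before its strongest start. The difference between genes with and without a CHR was not tested.

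Other genes of the G2 and M programme fell as well. A list of 60 such genes held kinesins, kinetochore proteins, partners of the anaphase-promoting complex and others. Of its 59 tested genes, 34 were lower and 0 higher by limma, against 5.61% of all genes lower and 8.4% higher. The median log2 change was -0.65. At an unadjusted p under 0.05, 42 were lower and 0 higher, against 12.3% of all genes lower and 19.1% higher. Leaving out any 1 library gave 19 to 23 lower. Ube2c, which passes ubiquitin to targets of the anaphase-promoting complex, averaged 25.5 ± 0.960 FPKM in Hspa9 cKO cells and 69.4 ± 3.30 FPKM in WT cells (SD, n = 3 each), a log2 change of -1.41 (adjusted p = 0.000687, limma). Cks1b, a small CDK-binding subunit, averaged 50.9 ± 1.14 FPKM in Hspa9 cKO cells and 85.5 ± 1.53 FPKM in WT cells (SD, n = 3 each), with a log2 change of -0.74 (adjusted p = 0.00221, limma). DNA replication genes moved the same way, with 16 of 32 tested genes lower, against 5.61% of all genes, and 0 higher. Their median log2 change was -0.39, and leaving out any 1 library gave 6 to 10 lower. At an unadjusted p under 0.05, 20 of the replication genes were lower, against 12.3% of all genes, and 0 higher. Rrm2, a ribonucleotide reductase subunit, had a log2 change of -0.78 (adjusted p = 0.00894, limma), and Pcna, the sliding clamp, had -0.77 (adjusted p = 0.00216, limma).

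The factors known to drive or repress this programme were called in part. Among 22 tested regulators (MuvB and DREAM subunits, MYB, E2F and NF-Y factors), 4 were lower and 1 higher by limma, against 5.61% of all genes lower and 8.4% higher, with a median log2 change of -0.14. At an unadjusted p under 0.05, 5 were lower and 3 higher, against 12.3% of all genes lower and 19.1% higher. E2f2, an activator E2F, averaged 9.26 ± 0.284 FPKM in Hspa9 cKO cells and 18.8 ± 1.16 FPKM in WT cells (SD, n = 3 each), a log2 change of -0.95 (adjusted p = 0.00238, limma). The other calls were Rbbp4, a MuvB subunit, at -0.32 (adjusted p = 0.024, limma), E2f8, a repressor E2F, at -0.76 (adjusted p = 0.024, limma), Lin54, the CHR-binding subunit of MuvB, at -0.62 (adjusted p = 0.0447, limma), and Myb, at 0.41 (adjusted p = 0.049, limma) and higher. Myb encodes c-MYB and not B-MYB. Mybl2, which encodes B-MYB, averaged 31.9 ± 3.93 FPKM in Hspa9 cKO cells and 32.6 ± 1.37 FPKM in WT cells (SD, n = 3 each). Mybl2 was not called, at -0.036 (adjusted p = 0.843, limma). E2f1, another activator E2F, named after its values were seen, averaged 9.60 ± 3.69 FPKM in Hspa9 cKO cells and 18.7 ± 2.47 FPKM in WT cells (SD, n = 3 each). It was not called, at -0.94 (adjusted p = 0.0564, limma), but was called lower from end events (adjusted p = 0.0489, limma). Of the 5 called genes, E2f2 alone kept its call without each library in turn; leaving out 1 library gave 1 to 2 lower and 0 to 1 higher.

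**Figure D5:**
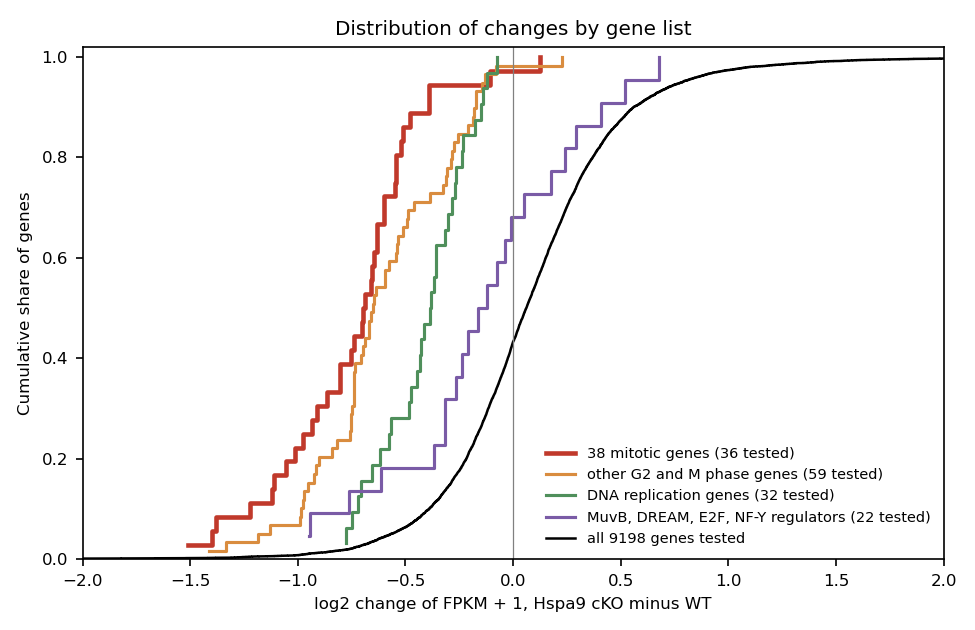
Cumulative share of genes (y axis) at or below a given log2 change of FPKM + 1, Hspa9 cKO minus WT (x axis, cropped at -2 and 2), for the 36 tested mitotic genes (red), 59 other G2 and M phase genes (orange), 32 DNA replication genes (green), 22 regulators (purple) and all 9198 genes tested (black). The medians are -0.69, -0.65, -0.39, -0.14 and 0.061.

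Markers of the sorted stage moved beside these genes, and their part in the result was not tested. The DN3 markers Il2ra and Ptcra were high in both groups, but not every marker on the DN3 list was. Il2ra, which encodes CD25, was at 377 ± 8.62 FPKM in Hspa9 cKO cells and 153 ± 6.76 FPKM in WT cells (SD, n = 3 each). Ptcra, the pre-T cell receptor alpha chain, was at 148 ± 6.21 FPKM in Hspa9 cKO cells and 72.8 ± 13.7 FPKM in WT cells (SD, n = 3 each). Rag1 averaged 2.79 FPKM in Hspa9 cKO cells and 2.41 FPKM in WT cells. Under its own ID, Lck averaged 0 FPKM in Hspa9 cKO cells and 0.182 FPKM in WT cells, and Gata3 was not listed. With events assigned by exon edge, all 18 DN3 markers, Lck and Gata3 among them, reached 1 FPKM in at least 3 libraries. The low value of Lck and the absence of Gata3 thus depend on the gene ID that events are filed under. Of 16 tested DN3 markers, 8 were higher, against 8.4% of all genes, and 1, Tcf7, was lower at -0.77 (adjusted p = 0.0289, limma), against 5.61%. Their median log2 change was 0.48. The higher ones included Il2ra at 1.30 (adjusted p = 0.000555, limma) and Dtx1, a Notch target, at 1.45 (adjusted p = 0.000975, limma). The summed level of the DN3 list was 3040 to 3247 FPKM in Hspa9 cKO libraries and 2272 to 2499 FPKM in WT libraries. Among markers of cells past beta selection, Cd8b1, a CD8 chain, averaged 2.31 ± 0.349 FPKM in Hspa9 cKO cells and 6.07 ± 0.281 FPKM in WT cells (SD, n = 3 each), with a log2 change of -1.10 (adjusted p = 0.0045, limma), and Slc3a2, a subunit of amino acid transporters, changed by 0.43 (adjusted p = 0.024, limma). The summed level of that list was 163 to 201 FPKM in Hspa9 cKO libraries and 155 to 163 FPKM in WT libraries.

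Markers of cells outside the gate were listed in part, and the value after a called marker is its log2 change. Of 8 erythroid markers, 5 were listed and summed to 38.3 to 46.1 FPKM in Hspa9 cKO libraries and 63.1 to 77.1 FPKM in WT libraries, with both tested genes lower, led by Hba-a2 at -0.71 (adjusted p = 0.015, limma), and with Slc4a1 not listed. B cell markers summed to 15.5 to 18.8 FPKM in Hspa9 cKO libraries and 9.75 to 12.7 FPKM in WT libraries, nearly all from Cd79b, at 0.54 (adjusted p = 0.0362, limma) and higher, with Cd79a, Ebf1, Ms4a1 and Pax5 not listed. Myeloid and dendritic cell markers summed to 13.6 to 15.6 FPKM in Hspa9 cKO libraries and 9.12 to 15.4 FPKM in WT libraries, with Cd14, Itgam, Mpo, S100a9 and Siglech not listed and 0 called, also at an unadjusted p under 0.05. NK and innate lymphoid markers summed to 201 to 207 FPKM in Hspa9 cKO libraries and 200 to 220 FPKM in WT libraries, with Nkg7 higher at 0.90 (adjusted p = 0.00216, limma), Gzma lower at -0.29 (adjusted p = 0.0352, limma), and Eomes, Klrb1c and Ncr1 among those not listed. Stromal markers summed to 62.5 to 69.6 FPKM in Hspa9 cKO libraries and 48.0 to 51.9 FPKM in WT libraries, with Epcam higher at 0.47 (adjusted p = 0.0196, limma) and Foxn1, Krt5 and Krt8 not listed. Of the DN1 and DN2 progenitor list, which summed to 8.68 to 10.8 FPKM in Hspa9 cKO libraries and 8.55 to 11.7 FPKM in WT libraries, 2 genes passed the filter and 0 were called, also at an unadjusted p under 0.05. Over all marker lists, those of DN3 cells and cells past beta selection included, 6 genes were lower and 12 higher. Of all genes tested, 5.61% were lower and 8.4% higher. The DN3 list held 8 of the 12 higher and 1 of the 6 lower. The list of cells past beta selection held 1 of the higher and 2 of the lower. Over all marker lists, leaving out any 1 library gave 1 to 4 lower and 7 to 9 higher. A gene that is not listed may also be a failed estimate. Whether cells outside the gate had a part in the mitotic levels was not tested.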

How the data were processed

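RNA-seq libraries of DN3 thymocytes (3 Hspa9 cKO, 3 WT) were analysed from the authors' deposited FPKM tables, which hold 1 value per transcript-structure event, per the file headers. Reads were trimmed with cutadapt 1.9.1, the genome build named being mm10, per the submitters' processing notes; an aligner, assembler, annotation or strandedness was not given in the sources used here. A gene's level is its summed start events (end events where it has none), with repeated events dropped and absent events set to 0. Levels were tested as log2(FPKM + 1) with limma 3.58.1 (R 4.3.3; trended, robust, two-sided, Benjamini-Hochberg over 9198 genes, threshold 0.05), after a check on simulated data. For joined loci, events were also assigned by exon edge to GENCODE M21. Genes with per-library values were, by rule, the highest, most changed and least changed of each role group and those whose call changed with end events; others were added after their values were seen. Members and lists were chosen with earlier results of these data known. Some marker genes on the lists are not reported by name here, though list counts and sums include them. Alternatives were end events, exon edges, filters, pseudocount, scaling, variance model, a replicate block and leaving out each library. RefSeq promoters were scanned on both strands.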

Additional observations from a re-analysis of the deposited data

How the results depend on the processing

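The 36 tested genes kept their sign under every alternative listed under the processing except Pttg1, which ranged from -0.19 without WT replicate 1 to 0.33 without WT replicate 2. The count of genes called lower stayed between 24 and 29 with end events, exon edges, no filter, a filter of 5 FPKM, a pseudocount of 0.1, both scalings and the plain variance model, and between 18 and 24 with 1 library left out; the count called higher was 0 throughout. The median log2 change stayed between -0.77 and -0.69. Deviations of same-numbered libraries correlated at 0.019, -0.0241 and -0.0218, against -0.0391 to 0.0595 for libraries of different number. No large part shared by number was seen. The labels do not say whether same-numbered libraries were paired, and these correlations cannot settle it. With the replicate number as a block, 14 of the 27 genes were called lower, and calls over all genes were 84 lower and 161 higher; the other G2 and M list had 10 lower, the replication list 3, the regulators 1 lower and 0 higher, and all marker lists together 3 lower and 5 higher. Leaving out 1 library gave 202 to 323 lower and 233 to 514 higher over all genes, 19 to 23 lower in the other G2 and M list, 6 to 10 in the replication list, 1 to 2 lower and 0 to 1 higher among regulators, and 1 to 4 lower and 7 to 9 higher among markers. The single higher regulator, Myb, was lost (0 higher) with exon edges, no filter, the pseudocount of 0.1, either scaling and the plain variance model. End events by exon edge, an alternative added after the data were seen, gave 2 lower and 0 higher regulators, 27 mitotic genes lower, and 0.091 for Ncapd2. From ends, Kif23 had 0.18 in place of -1.18 and Rag2 -0.92 in place of 0.85, neither called; the cause was not tested. The share of the main start changed the sign of its difference in at least 1 alternative for 8 of 12 genes. No read depth was given, so the precision of single values is unknown.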
